A study of Rattus norvegicus with 16 samples.

Results

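The heat shock proteins and their co-chaperones were followed through the rat hippocampus 24 h after traumatic brain injury (TBI). The genes were taken from the array by name: every gene called Hspa, Hspb, Hspd, Hspe, Hsph or Hsp90 with its number, every DnaJ gene of classes A, B and C, and Bag1 to Bag6, with the brightest probe standing for each gene. This gave 70 genes of 26583 distinct names, read by 89 of 30367 probes. They comprised 25 Dnajc genes, 13 genes of the Hspa and Hsph type, 11 Dnajb genes, 8 Hspb genes, 5 Bag genes, 4 Dnaja genes, 2 Hsp90 genes and the pair Hspd1 and Hspe1. Of these, 63 were bright enough to be tested. The 7 others, Dnajb7, Dnajb8, Dnajc5b, Dnajc5g, Dnajc13, Hspa1l and Hspb3, were not well above background on every array of any group. The rule that chose the members used no measured difference between groups, but it was set with earlier results of these data known.

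All rats were adult male Sprague-Dawley animals, and each array held RNA of the whole hippocampus of 1 rat. Naive rats (3 arrays) were neither anesthetized nor handled. Sham rats (2 arrays) were anesthetized and prepared for injury but received no fluid pulse. TBI rats (3 arrays) received a severe parasagittal fluid percussion injury. Injured rats of 3 further groups received PMI-006 (3 arrays) or JM6 (3 arrays) by oral gavage, or estrogen (E2, labelled E33; 2 arrays), which the sample labels give as subcutaneous and the methods as intraperitoneal. JM6 is a prodrug that slowly releases an inhibitor of kynurenine 3-monooxygenase. The question was how injury, and treatment after injury, changed gene expression in the hippocampus.

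Chaperones of the Hsp70 family (Hspa genes) bind unfolded stretches of proteins in a cycle driven by ATP. J-domain proteins (Dnaja, Dnajb and Dnajc genes) bring them clients and start ATP hydrolysis, and Bag proteins and Hsph1 help release the nucleotide. Small heat shock proteins (Hspb genes) hold unfolding proteins without ATP, and Hspb1 also binds cytoskeletal proteins. When unfolded proteins accumulate, heat shock factor 1 binds heat shock elements, arrays of GAA and TTC units in the promoters of inducible chaperones. In injured brain Hspb1 is best known from reactive astrocytes, and Hspa1b, the inducible Hsp70, from stressed neurons.

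Signals were compared as log2 of the signal over the 75th percentile of the probes well above background on the same array, so that 0 is the level of that percentile. A negative value is a dimmer probe, not a fall. Differences between groups are given as log2 fold changes from 1 limma model over all 16 arrays, and a gene was called at an adjusted p under 0.05 over all 22821 probes tested. The arrays came in 2 scan sessions, the first with the Naive, Sham and TBI rats and the second with all 3 drug groups. Between 16274 and 18239 probes per array were well above background in the first session and between 20256 and 24979 in the second. Slide 1 carried Naive rats 1 and 2 with both Sham rats, and slide 2 carried Naive rat 3 with the TBI rats. In whole tissue, fewer cells of a type and less RNA per cell cannot be told apart. Of 7 hippocampal neuron markers on the array, each was well above background on at least 1 Naive array. Prox1, which marks dentate granule cells, was not well above background on any Sham or TBI array. The range of the summed scaled signal of the 7 was 18.46 to 19.43 in Naive, 24.82 to 27.03 in Sham and 14.65 to 20.72 in TBI rats.

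The sequences below are shown because the results turn on Hspb1 and, for comparison, to give heat shock elements of 3 units found near members' starts. The Hspb1 probe, given in the scanner files at chr12:21911494-21911664 of rat build rn4, minus strand, covers 171 bases of the genome with 60 bases, and is read with no part in capitals.
Hspb1 probe: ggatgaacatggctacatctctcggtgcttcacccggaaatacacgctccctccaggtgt
A promoter, from 250 bases before to 50 bases after the annotated start in RefSeq (build GRCr8), was given for 54 of the 70 genes. A heat shock element of 3 units, that is GAANNTTC followed by NNGAA, or TTCNNGAA followed by NNTTC, on either strand, was present in 5 of the 54 (9.26%) and in 267 of all 33469 rat promoters (0.798%). The 5 genes were Dnaja1, Hspa8, Hsph1, and the neighbors Hspd1 and Hspe1, whose promoters overlap and hold the same elements. At Hspe1, 2 elements overlap, starting 65 and 60 bases before the annotated start. Only the first is in capitals below, and the second ends within the lower-case bases after it. Among the heat-inducible chaperones of the cytosol, 3 of 8 promoters held 3 units and 6 of 8 held at least 2, so that Bag3, Dnajb1 and Hspa4l, like Hspb1, had matches of 2 units only and Hsp90ab1 and Hspa1l had none. The windows are shown 5′ to 3′ along the strand named, with the element in capitals, and the last line gives the stretch of the Hspb1 promoter that holds its only matches, both of 2 units (GAANNTTC or TTCNNGAA).
Hspa8, chr8:50080293-50080321, plus strand: gcgagcgtGAAAGTTCCAGAAcgctgcgg
Hspa8, chr8:50080451-50080479, plus strand: cggaacccTTCTGGAAGGTTCtaagacag
Hsph1, chr12:10427324-10427352, plus strand: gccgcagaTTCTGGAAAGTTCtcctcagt
Dnaja1, chr5:60638405-60638433, plus strand: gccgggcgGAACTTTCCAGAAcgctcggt
Hspe1, chr9:64084254-64084282, plus strand: gcgctcggTTCTAGAACCTTCcggaaggc
Hspb1, chr12:26432395-26432438, minus strand: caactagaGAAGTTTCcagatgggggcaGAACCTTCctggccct
The 2-unit motif, which every 3-unit element contains, was present in 17 of the 54 promoters (31.5%) and in 5305 of all 33469 (15.85%). Among the small heat shock proteins, 3 of 6 promoters held a 2-unit match (Hspb1, Hspb6 and Hspb8) and 0 of 6 held 3 units. The Hspb9 promoter held neither motif. The match is one of letters, and binding was not measured.

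Injury was marked by a large rise of Hspb1. The scaled log2 signal of Hspb1 was -1.36, -0.22 and -1.43 in Naive rats 1 to 3, -0.94 and -0.02 in the Sham rats, and 3.52, 4.71 and 4.85 in the TBI rats. Every TBI array lay more than 3 log2 units above every uninjured array. The group means were -1.0 ± 0.68 (SD, n = 3), -0.48 ± 0.65 (SD, n = 2) and 4.36 ± 0.73 (SD, n = 3). Hspb1 was 28.7-fold higher in TBI than in Sham (log2 fold change 4.84, SE 0.59, 95% interval 3.56 to 6.12, limma adjusted p = 0.00398) and 41.2-fold higher than in Naive (5.36, SE 0.53, adjusted p = 0.00177). Only 7 of 22793 probes had a larger log2 fold change in TBI against Sham, and 7 of 22803 against Naive. Sham and Naive differed by 0.52 (adjusted p = 0.671). On slide 2 alone the TBI rats stood 5.79 above Naive rat 3, and with slide as a block the fold changes were 5.49 against Sham and 5.79 against Naive. Both calls held when any 1 array was left out, with log2 fold changes from 4.38 to 5.30 against Sham and from 5.12 to 5.78 against Naive. They were lost under the methods' t-test after adjustment (adjusted p = 0.303 and 0.19), and that against Sham when limma was fitted on those arrays alone (adjusted p = 0.0808).

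Hspb9, a small heat shock protein otherwise known from testis, was the other member of its class that rose. Its log2 signal was -5.97, -5.78 and -5.93 in Naive, -7.64 and -5.35 in Sham, and -3.82, -2.25 and -3.05 in TBI rats. The TBI arrays lay above all uninjured arrays, of which only Naive rat 2 and Sham rat 2 were well above background. The gene was tested because the injured groups, in which it was high, passed the filter on dim probes, so its call was favored by that filter, and the size of the fold rests on arrays at background. The fitted rise was 11-fold over Sham (log2 3.45, SE 0.57, limma adjusted p = 0.00736) and 7.22-fold over Naive (2.85, SE 0.51, adjusted p = 0.0118). With a filter asking for every array to be well above background, the gene was not tested. Unlike Hspb1, Hspb9 lost both calls under normexp background correction (1.76 and 1.53, adjusted p = 0.191 and 0.236) and with slide as a fixed block (3.52 and 2.89, adjusted p = 0.338 and 0.152). Without Sham rat 1, the dimmest array for this probe, the fold change against Sham was 2.31 (adjusted p = 0.0469), and without Sham rat 2 it was 4.60.

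None of the 5 other small heat shock proteins tested was called after injury. Hspb8, a partner of Bag3 in chaperone-assisted autophagy, read -2.41, -1.96 and -2.44 in Naive, -1.28 and -1.29 in Sham, and -1.52, -0.28 and -0.91 in TBI rats, so that TBI and Sham overlapped and both lay above Naive. The difference from Naive was 1.37 (adjusted p = 0.0702) and from Sham 0.38. Hspb2 and Hspb6, which are abundant in muscle, and Hspb11, now named Ift25 in RefSeq and part of intraflagellar transport, were not called in either comparison, and neither was Hspb7, which was not well above background on any array of the 3 groups. Across the list, 2 of 7 tested genes were called higher and 0 lower, with Hspb9 tested only through the injured groups, and the median log2 fold change was 0.38 against Sham and 0.57 against Naive, beside -0.03 and 0.04 over all probes.

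**Figure D1:**
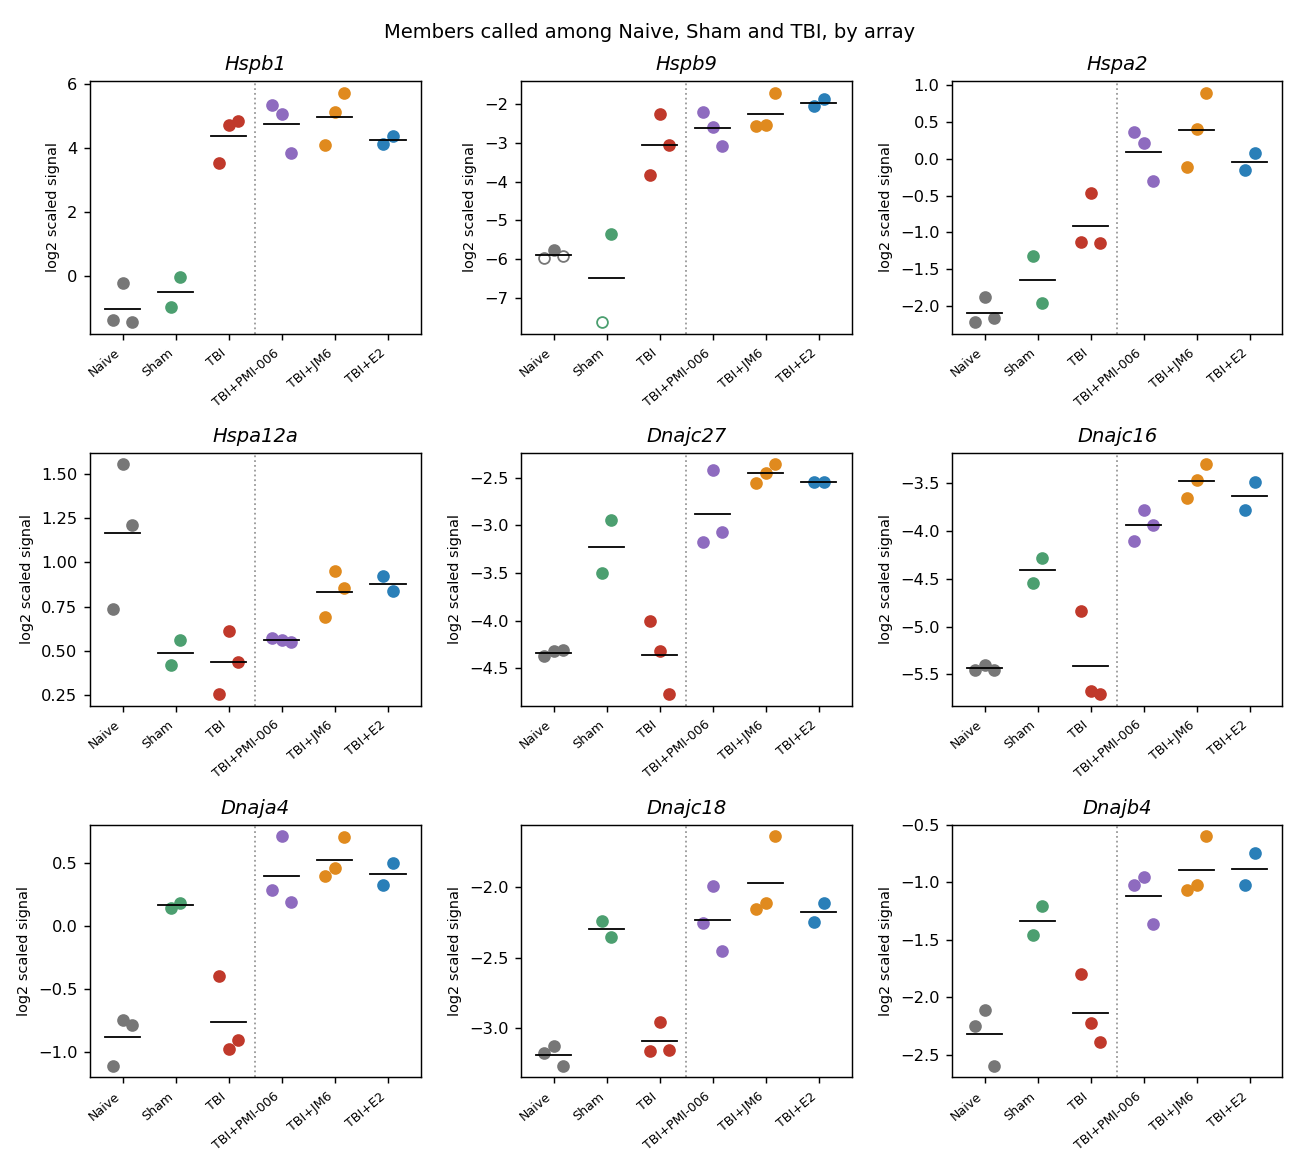
Scaled log2 signal (y axis) of 9 member genes, 1 point per array by group (x axis); black lines are group means, open points are arrays on which the probe was not well above background, and the dotted line separates the scan sessions. Hspb1 and Hspb9 sit higher in every injured rat, Hspa2 and Hspa12a differ between TBI and Naive, and the 5 DnaJ genes of the lower panels are higher in the 2 Sham rats than in the Naive and TBI rats.

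The 2 small heat shock proteins were the only members called higher in TBI than in Sham. In this comparison 2 members rose and 4 fell among 63 tested. Over all probes 9.38% were called, 2.92% higher and 6.46% lower, so the members' share of 9.52% was near the background. The median member changed by -0.00. Against Naive, 3 members rose (Hspb1, Hspb9 and Hspa2) and 1 fell (Hspa12a), beside 4.71% of all probes called, 2.98% higher and 1.73% lower. At an unadjusted p under 0.05 the counts were 9 members against Sham and 10 against Naive. Both comparisons use the same TBI rats. The count against Sham was 3 without Sham rat 1 or Sham rat 2 and 2 without TBI rat 2 or TBI rat 3. The count against Naive was 2 without Naive rat 2, TBI rat 2 or TBI rat 3. For fits that left out an array, here and below, the share of all probes was not counted.

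**Figure D2:**
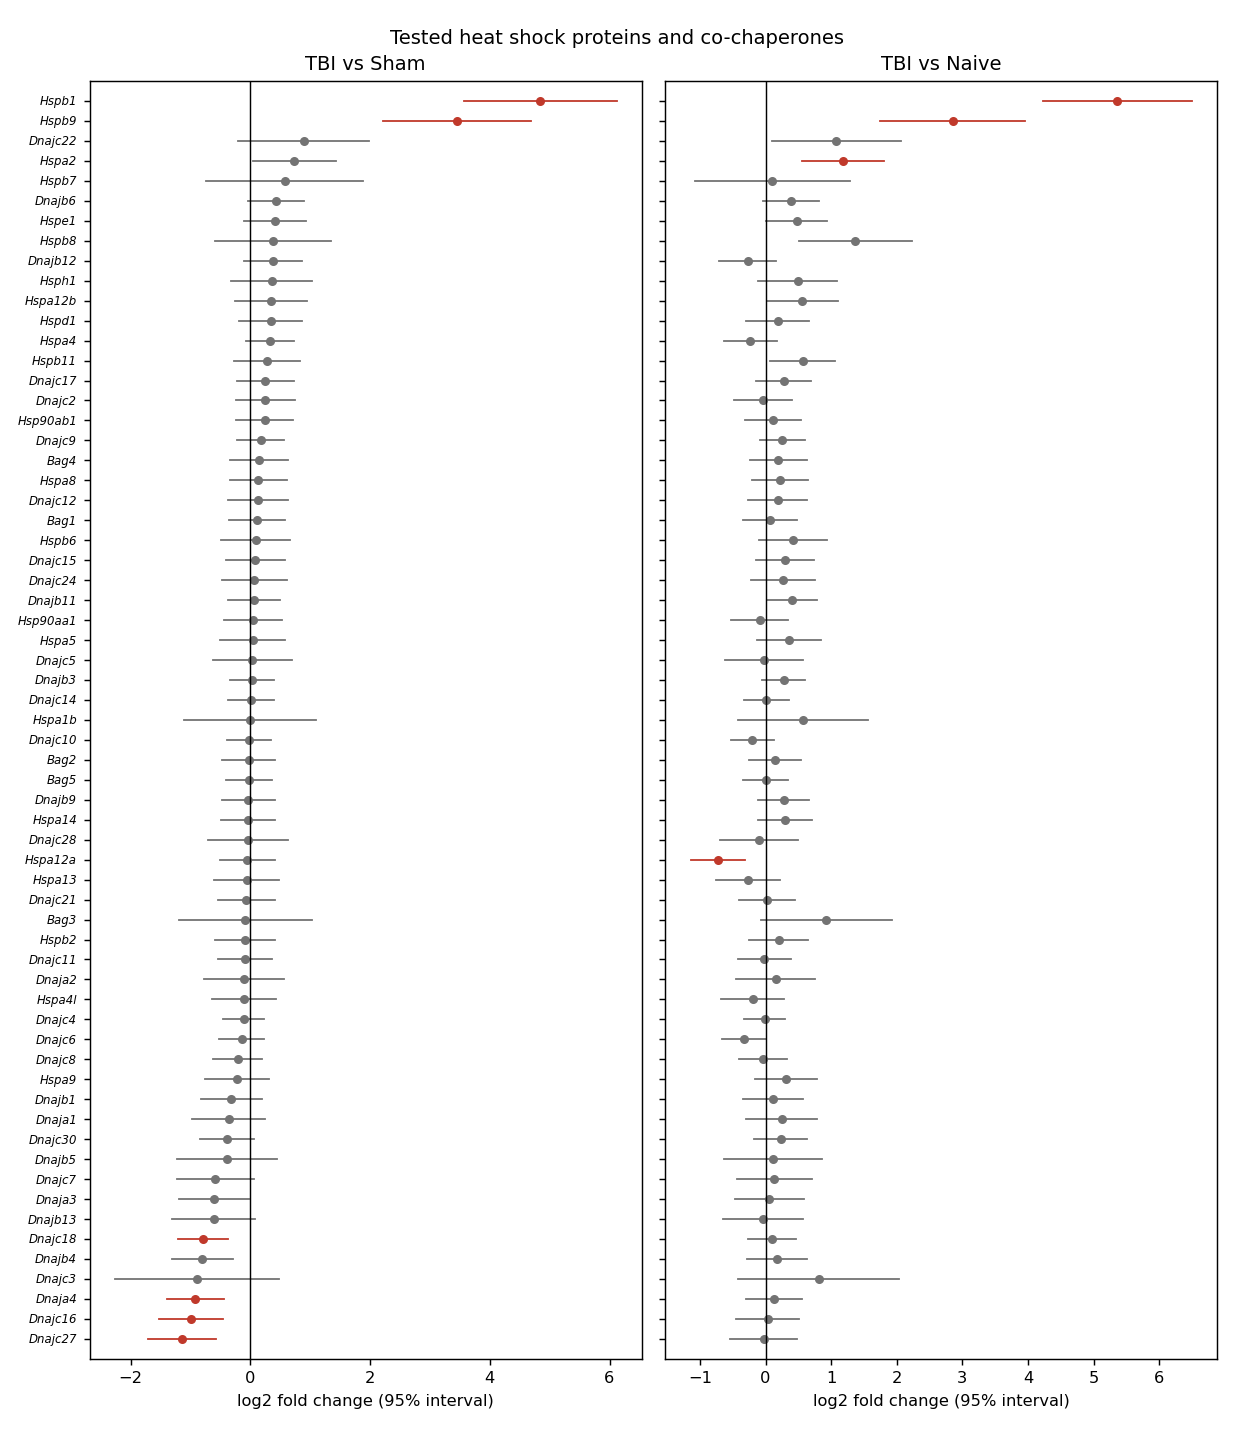
Log2 fold change (x axis) of the 63 tested members, ordered by TBI against Sham, with 95% intervals from the limma model, in TBI against Sham (left) and TBI against Naive (right); red marks called genes. Hspb1 at 4.84 and 5.36 and Hspb9 at 3.45 and 2.85 stand apart from the other members, most of whose intervals cross 0.

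The genes listed as heat-inducible chaperones of the cytosol were not called after injury. The list does not hold all targets of heat shock factor 1, and Hspb1 was counted with the small heat shock proteins instead. Of the 10 tested, 0 were called against Sham (1 at an unadjusted p under 0.05) or Naive (0), beside 9.38% and 4.71% of all probes, so that for 10 genes a count of 0 lies near the background. Their median log2 fold changes were -0.04 and 0.20. After quantile normalization 1 was called, Dnajb4, lower in TBI than in Sham (-0.70, limma adjusted p = 0.0295). Hspa1b, the inducible Hsp70, read -4.94, -4.19 and -4.26 in Naive, -4.20 and -3.58 in Sham, and -4.18, -3.40 and -4.10 in TBI rats. The groups overlapped, and the difference from Sham was -0.00 with a 95% interval from -1.11 to 1.10. Bag3, which links Hsp70 to Hspb8, read -3.15, -2.42 and -3.19 in Naive, -1.94 and -1.87 in Sham, and -1.79, -1.87 and -2.31 in TBI rats. Its TBI and Sham arrays overlapped, with both groups above Naive, and the differences were -0.09 (95% interval -1.2 to 1.03) from Sham and 0.93 (adjusted p = 0.275) from Naive. Hsph1, a nucleotide exchange factor, differed from Sham by 0.36 (-0.32 to 1.04) and Dnajb1, the main cytosolic Hsp40, by -0.32 (-0.83 to 0.19). A change within those intervals is not excluded by these arrays. The constitutive Hspa8 and the Hsp90 genes Hsp90aa1 and Hsp90ab1 were not called with any of their probes in either comparison. None of the 5 genes with a 3-unit element was called in TBI against Sham or Naive.

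The listed chaperones of organelles gave no called change after injury, beside 9.38% of all probes against Sham and 4.71% against Naive. For lists this small a count of 0 lies near the background. Dnajc16, also of the endoplasmic reticulum but outside the list, was called lower against Sham, as given below. Among 6 endoplasmic reticulum members, including the Hsp70 Hspa5 (BiP) and the J proteins Dnajb9, Dnajb11 and Dnajc10, 0 were called against Sham and 0 against Naive. Hspa5 differed from Sham by 0.04 and from Naive by 0.36 (adjusted p = 0.401). Among 6 mitochondrial members, 0 were called in either comparison, and Hspe1, the co-chaperonin of Hspd1, differed by 0.41 (adjusted p = 0.307) from Sham and 0.47 (adjusted p = 0.232) from Naive. The 5 Bag genes were likewise not called.

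2 further genes of the Hsp70 family differed between TBI and Naive. Hspa2, an Hsp70 best known from spermatogenesis, read -2.22, -1.88 and -2.16 in Naive, -1.33 and -1.97 in Sham, and -1.12, -0.47 and -1.14 in TBI rats. The TBI arrays were the highest of the 3 groups without overlap, with a rise of 1.18 over Naive (SE 0.29, limma adjusted p = 0.0369) and a difference of 0.74 from Sham (adjusted p = 0.168). Hspa12a, a distant Hsp70 relative abundant in neurons, read 0.73, 1.55 and 1.21 in Naive, 0.42 and 0.56 in Sham, and 0.26, 0.61 and 0.44 in TBI rats. Sham and TBI overlapped and both lay below Naive. Hspa12a fell by 0.73 against Naive (SE 0.19, limma adjusted p = 0.0465), while Sham differed from Naive by -0.68 (adjusted p = 0.0714). A second Hspa12a probe differed by -0.19 (adjusted p = 0.801). Each call was kept without only 1 of the 6 arrays left out in turn, TBI rat 1 for Hspa2 and Naive rat 1 for Hspa12a. Without the others the adjusted p reached 0.132 for each.

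Some J-domain genes were higher in the Sham rats than in the Naive and TBI rats scanned in the same session. The members' share of calls was near that of all probes in both comparisons with Sham. It was 9.52% beside 9.38% in TBI against Sham, and 7.94% beside 8.07% in Sham against Naive. Dnajc27, which joins a J domain to a small GTPase, read -4.37, -4.32 and -4.31 in Naive, -3.5 and -2.95 in Sham, and -4.01, -4.32 and -4.77 in TBI rats. Dnajc16, an endoplasmic reticulum J protein, read -5.45, -5.41 and -5.45, then -4.55 and -4.28, then -4.84, -5.68 and -5.71. For both genes the Sham arrays lay above the Naive and TBI arrays. Dnaja4, a cytosolic partner of Hsp70, read -1.11, -0.75 and -0.79 in Naive, 0.14 and 0.18 in Sham, and -0.39, -0.98 and -0.90 in TBI rats. Dnajc18 read -3.17, -3.13 and -3.26, then -2.24 and -2.36, then -3.16, -2.95 and -3.15. Neither gene had a Naive or TBI array within the Sham range. All 4 fell in TBI against Sham, with log2 fold changes of -1.14 for Dnajc27 (limma adjusted p = 0.0215), -0.99 for Dnajc16 (0.028), -0.92 for Dnaja4 (0.0251) and -0.79 for Dnajc18 (0.0261). Set against Naive instead, the TBI values of these genes differed by -0.03, 0.03, 0.12 and 0.10.

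The same 4 genes and Dnajb4, a cytosolic Hsp40, were the members called in Sham against Naive, all higher. In that comparison 5 members rose and 0 fell, beside 8.07% of all probes called (6.55% higher, 1.51% lower), so the members' share of 7.94% was near the background. The rises were 1.11 for Dnajc27 (limma adjusted p = 0.0231), 1.04 for Dnaja4 (0.0149), 1.02 for Dnajc16 (0.0247), 0.98 for Dnajb4 (0.0248) and 0.89 for Dnajc18 (0.016). The 2 comparisons share the Sham rats, so a high Sham value enters both. Dnajb4 read -2.25, -2.11 and -2.60 in Naive, -1.46 and -1.21 in Sham, and -1.80, -2.22 and -2.39 in TBI rats, and its difference between TBI and Sham was -0.80 (adjusted p = 0.0504). Dnajc3, an endoplasmic reticulum J protein that restrains eIF2α kinases, was high in Sham rat 1 (-0.44) and not in Sham rat 2 (-3.5), beside -3.46 to -3.90 in Naive rats, and was not called (1.70, adjusted p = 0.125). The summed signal of the neuron markers was also higher in the 2 Sham rats than in any Naive or TBI rat, and its part in these values was not tested. Within slide 1, Sham stood above the Naive rats by 1.12 for Dnajc27 and 0.85 for Dnajc18. No slide held both Sham and TBI rats, and with slide as a fixed block none of the 5 rises and none of the 4 falls was called. Other probes of members were also called: a dimmer Dnajc14 probe at 1.78 in Sham against Naive (limma adjusted p = 0.00358) and -1.70 in TBI against Sham (adjusted p = 0.00581), where the brightest differed by 0.00 and 0.01, and second probes of Dnaja3 (1.11) and Dnajc17 (0.80) in Sham against Naive. The count of 5 was 3 without Naive rat 1, 2 without Naive rat 3 or Sham rat 1, and 1 without Sham rat 2. In TBI against Sham, all 4 falls held without TBI rat 1, Dnajc27 also held without Sham rat 1, and the rest lost the call when any other array was left out. Under normexp background correction none of the calls held, and Dnajc16 turned to 0.14 in TBI against Sham.

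Other genes of the chaperone system were also counted. The numbers called after injury lay near the shares of all probes, 9.38% against Sham and 4.71% against Naive. Of 17 heat shock factors and co-chaperones outside the member families, 1 rose in TBI against Sham, Hmox1, the heme-degrading stress enzyme (2.78, SE 0.81, limma adjusted p = 0.0490), and it also rose against Naive (3.08, adjusted p = 0.0322). Hsf1, the gene of heat shock factor 1 itself, differed by -0.15 and -0.09. Of the 8 chaperonin subunits of the CCT ring, 0 were called in either comparison. Of 15 genes of the unfolded protein response and endoplasmic reticulum folding, 2 fell against Sham and 1 rose against Naive. The falls were in the lectin chaperone Canx (-2.61, adjusted p = 0.00432) and its disulfide isomerase partner Pdia3 (-0.93, adjusted p = 0.0387), both of which were called higher in Sham than in Naive (3.01 and 0.98). The rise was in Creld2, a gene induced by endoplasmic reticulum stress (1.02, adjusted p = 0.0451).

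Markers of other cells moved with the same comparisons, in which 9.38% of all probes were called against Sham and 4.71% against Naive. Against Sham, 4 of 8 microglia and macrophage markers were higher in TBI, with Cd14 up by 3.09 and Cd68 by 2.68, and the summed scaled signal of the list was 15.64 to 24.77 in TBI, 10.1 to 17.81 in Sham and 10.39 to 11.83 in Naive rats. For leukocytes 3 of 6 markers were higher, with S100a8 up by 3.77, the sums were 1.852 to 6.346, 0.8169 to 0.8903 and 1.077 to 1.649, and Mpo was not well above background on any TBI array. For astrocytes 0 of 7 markers were called against Sham, and the sums were 26.82 to 28.55, 23.85 to 25.95 and 24.52 to 28.41. Of the 7 neuron markers 1 was lower, Snap25 (-0.67), and of 6 endothelial markers 1, Cldn5 (-1.23). The 4 choroid plexus markers were not called but had a median of -3.13, with sums of 0.1879 to 3.516 in TBI and 4.88 to 121 in Sham. Against Naive, Gfap (2.53) and Vim (2.63), markers of reactive astrocytes, were called higher and Aldh1l1 lower. The part of these cells in the rises of Hspb1 and Hspb9 was not tested.

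Every drug array and no TBI array was in the second scan session, so drug treatment and scan session cannot be told apart for any gene, Hspb1 and Hspb9 included. In the drug-treated rats Hspb1 lay in the range of the untreated injured rats or above it. Its log2 signal was 5.35, 5.06 and 3.85 with PMI-006, 4.10, 5.11 and 5.73 with JM6, and 4.11 and 4.38 with E2, beside 3.52 to 4.85 in TBI. All 4 injured groups overlapped, and the lowest drug array lay above the highest uninjured array at -0.02. Against TBI the differences were 0.40 for PMI-006 (95% interval -0.75 to 1.54, adjusted p = 0.526), 0.62 for JM6 (-0.52 to 1.76, adjusted p = 0.301) and -0.11 for E2 (-1.39 to 1.16, adjusted p = 0.864). Relative to the median of all probes, which itself moved, these were -0.39, -0.38 and -1.19, and after quantile normalization 0.24, 0.39 and -0.47, with no call. Between drugs the differences were 0.22 for JM6 against PMI-006 (-0.92 to 1.36), 0.73 for JM6 against E2 (-0.55 to 2.01) and 0.51 for PMI-006 against E2 (-0.77 to 1.79). Hspb9 read -2.20, -2.57 and -3.07 with PMI-006, -2.55, -2.53 and -1.69 with JM6, and -2.05 and -1.87 with E2. Its differences from TBI, 0.43, 0.78 and 1.08, were not called (adjusted p = 0.484, 0.182 and 0.105), and were -0.45, -0.25 and 0.0055 after quantile normalization.

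Over all members the drug calls depended on the scaling. The median of all probes was higher by 0.99 with JM6, 0.79 with PMI-006 and 1.08 with E2 on this scale. Under it 41 members were called higher with JM6, 34 with PMI-006 and 33 with E2, and 0 lower with any, beside 70.1%, 56.7% and 70.3% of all probes called. With JM6 69.9% of all probes were higher and 0.175% lower, with PMI-006 56.7% and 0.0482%, and with E2 70.2% and 0.092%. Members' medians were 0.77, 0.61 and 0.65, which is -0.22, -0.18 and -0.43 relative to all probes. Quantile normalization, which gives all arrays the same distribution, left 3 higher and 9 lower with JM6, 2 and 7 with PMI-006, and 0 and 9 with E2, beside 27.2%, 19.2% and 20.4% of all probes. By direction, 13.9% of all probes were then higher and 13.3% lower with JM6, 9.96% and 9.2% with PMI-006, and 10.4% and 9.98% with E2. The matrix of the authors, whose arrays share nearly 1 distribution, gave the same counts as quantile normalization. The calls of single members below are therefore given under both scalings. The count with PMI-006 was 22 without TBI rat 3 and 20 without PMI-006 rat 1 or 2, and that with E2 was 20 without E2 rat 2.

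**Figure D3:**
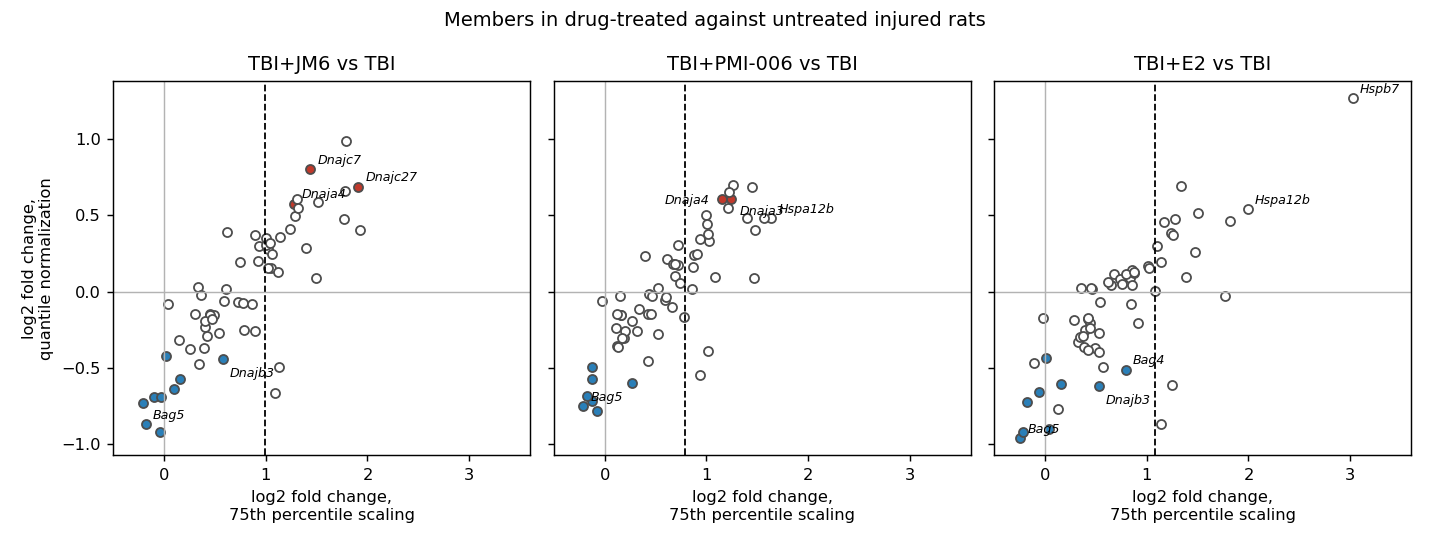
Log2 fold change of each tested member against TBI with the 75th percentile scaling (x axis) and after quantile normalization (y axis), 1 panel per drug; dashed lines mark the median of all probes and filled red or blue points were called higher or lower after quantile normalization. The members' points lie mostly above 0 on the first scale, near an all-probe median of 0.99, 0.79 or 1.08, and on either side of 0 on the second.

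The largest rises on the first scale were partly in J-domain genes that were also higher in Sham than in Naive and TBI rats. Dnajc27 read -3.17, -2.42 and -3.07 with PMI-006, -2.56, -2.45 and -2.36 with JM6, and -2.55 and -2.55 with E2, all above the TBI range of -4.77 to -4.01. Its rises were 1.91 with JM6, 1.48 with PMI-006 and 1.81 with E2, and 0.69, 0.41 and 0.46 after quantile normalization, of which only that with JM6 was called (limma adjusted p = 0.0229). Dnajc16 rose by 1.93, 1.46 and 1.77, and differed by 0.41, 0.089 and -0.030 after quantile normalization, with no call. Hspa12b, an Hsp70 relative of the endothelium, rose by 1.64 with PMI-006 and 1.99 with E2, beside 0.48 and 0.54 under the other scaling, and Dnajc3 rose by 1.45 and 1.5, beside 0.69 and 0.52. Neither gene was called after quantile normalization, and neither was Hspb11, which rose by 1.40 with PMI-006. The drugs are named here by rank, and these rises were not particular to them. Hspa12b also rose by 1.49 with JM6. Group means of Dnajc3 were -1.41 with PMI-006, -1.35 with JM6, -1.36 with E2 and -2.86 in TBI. Those of Hspb11 were -2.38, -2.39, -2.31 and -3.78 in the same order. Hspb7, a small heat shock protein of heart and vessels, read -4.55 and -5.42 with E2, at least 1.98-fold above TBI, a bound because 0 of 3 TBI arrays were well above background. It was tested only because both E2 arrays passed the filter on dim probes, so its difference is given as a description. It was well above background on 1 of 3 arrays each with JM6 (-5.38 in rat 3) and PMI-006 (-5.32 in rat 1), and after quantile normalization it was not called with any drug.

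Few members kept a call when the scaling changed. Dnaja4, Dnajc27 and the Hsp70 and Hsp90 adaptor Dnajc7 were called higher with JM6 under both scalings (0.58, 0.69 and 0.80 after quantile normalization), and Dnaja4 and the mitochondrial J protein Dnaja3 with PMI-006. The last 2 rose by 0.61 each after quantile normalization (limma adjusted p = 0.0247 and 0.0494). With E2 no member was called higher under both. Bag5, a Bag protein that inhibits Hsp70, was called lower only after quantile normalization, by -0.87 with JM6, -0.75 with PMI-006 and -0.96 with E2 (adjusted p = 0.001 for E2). On the first scale its arrays read 0.12 to 0.26 in TBI, -0.25 to 0.09 with PMI-006, -0.14 to 0.17 with JM6 and -0.15 to 0.02 with E2. Of the drug groups only JM6 overlapped TBI. Bag4 and Dnajb3 were called higher with E2 on the first scale (0.79 and 0.53) and lower after quantile normalization (-0.51 and -0.62), and so was Dnajb3 with JM6 (0.58 and -0.44). Dnajc7, Dnajb3, Dnaja3 and Bag5 were picked here after their values were seen.

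One drug-treated rat stood apart in several heat-inducible chaperones and in some other members. JM6 rat 3 was the highest of the 8 drug arrays for 8 of the 10 heat-inducible genes tested, the exceptions being Hspa4l and Hsp90ab1, for 37 of 63 members and for 37.1% of all probes. After quantile normalization it was highest for 7 of 10, 18 of 63 and 15.4%. Hspa1b read -0.85 in this rat and between -3.22 and -2.31 in the other drug rats, a level 3.61-fold above their median. Bag3 read 1.09, with the others between -1.29 and -0.15, or 3.87-fold above their median. Among the other heat-inducible genes, Dnajb1 read 1.71 against 0.68 to 1.09, Dnaja1 3.62 against 2.52 to 2.91, and Hsph1 0.34 against -0.88 to -0.30. JM6 rats 1 and 2 lay inside or near the range of the PMI-006 and E2 rats for these 5 genes. Hspb1, at 5.73, was also highest in this rat, though next to 5.35 in PMI-006 rat 1. Outside the list, Dnajc5, Hspa2 and Bag2 exceeded the next highest drug array by 0.59, 0.50 and 0.48. Within the list, Hspa8, Hsp90aa1 and Dnajb4 exceeded it by only 0.22, 0.17 and 0.14. Over all probes the median offset of this array from the other drug arrays was 0.28. The rat was noticed after its values were seen, and no test was made of it.

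**Figure D4:**
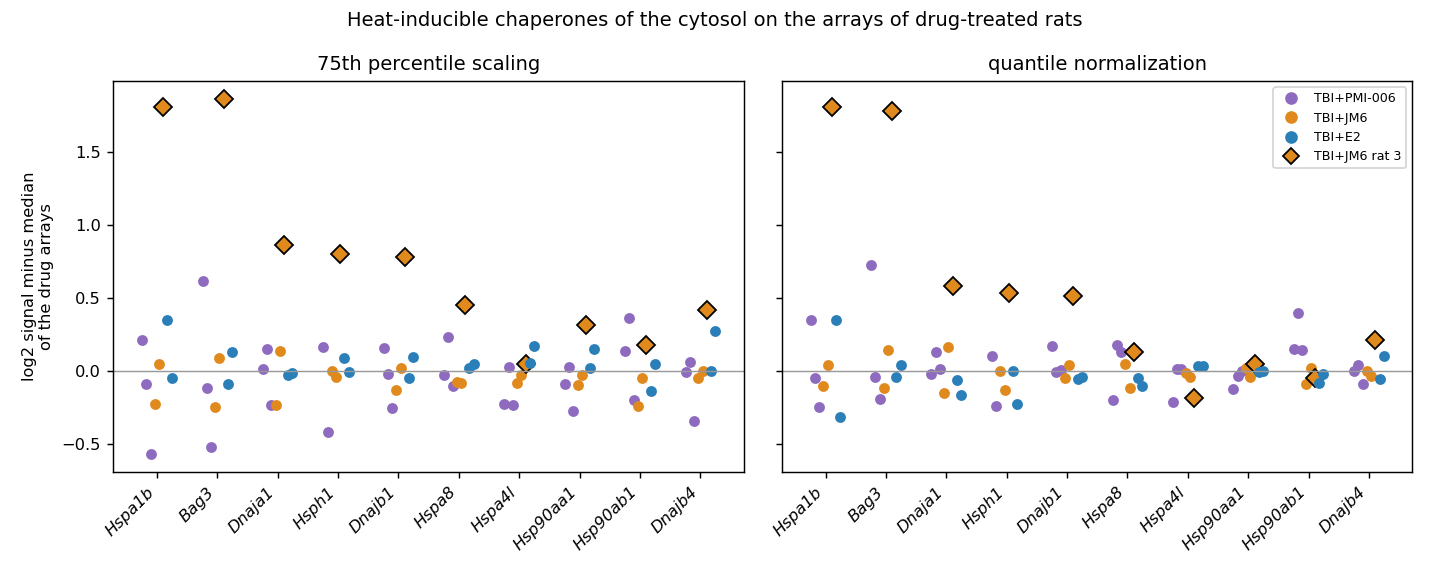
Log2 signal minus the median of the 8 drug arrays (y axis) for the 10 tested heat-inducible chaperones of the cytosol (x axis), 1 point per array, with the 75th percentile scaling (left) and after quantile normalization (right); diamonds mark JM6 rat 3. The diamonds lie above all other arrays for 8 genes in the left panel and 7 in the right panel.

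The sizes of the JM6 rises of Bag3 and Hspa1b depended on that rat. Against TBI, Bag3 rose by 1.79 (limma adjusted p = 0.00427) and Hspa1b by 1.78 (adjusted p = 0.00413) with all 3 JM6 rats, and by 1.14 (adjusted p = 0.0115) and 1.15 (adjusted p = 0.0119) without rat 3. All 7 heat-inducible genes called with JM6 kept the call without the rat, and Hspa4l (1.14 and 1.11) and Dnajb4 (1.24 and 1.09) moved little. After quantile normalization the values with all 3 rats were 0.99 (adjusted p = 0.0878) and 0.66, neither called. On the first scale 31 members rather than 41 were called without the rat, and Hspb8 (0.71, adjusted p = 0.152), Dnajc3 (1.43, adjusted p = 0.0805) and Dnajb5 (0.57, adjusted p = 0.0853) were among those lost. This drop was not compared with that over all probes, and a fit with fewer arrays can lose calls for any gene.

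Compared with each other within the second session, the 3 drugs gave 0 called members in each of the 3 pairs, beside 0.0131% of all probes for JM6 against PMI-006, 0.0175% for JM6 against E2 and 0.11% for PMI-006 against E2. By limma at an unadjusted p under 0.05 the counts were 0, 0 and 3, and after quantile normalization the adjusted counts were also 0 in each pair, beside 0% of all probes. Median differences over the members were 0.15, 0.05 and -0.11, beside 0.18, -0.08 and -0.26 over all probes. A p that misses the threshold does not show that the drugs act alike.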

How the data were processed

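RNA of 16 rat hippocampi was amplified with RiboAmp HS or MessageAMP II (which rat had which was not given in the sources used here) and hybridized to single-color Agilent arrays of 42877 probe spots outside the controls. Per the file headers, intensities were read with Agilent Feature Extraction 9.5.3.1, which subtracted background and detrended within the array. The authors deposited these intensities and a matrix of ratios, made in GeneSpring GX 7.3.1, which the methods describe as normalized to the 75th percentile of each array's detected probes. The deposited ratios go further: all 16 columns share nearly 1 distribution, with 25th, 50th and 75th percentiles of 0.03, 0.14 and 1 in every array, as quantile normalization gives.

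Here the intensities were scaled as the methods state, not as the matrix is: spots marked as outliers were left out (341 to 1113 per array), spots of a probe were averaged, and the log2 ratio to the 75th percentile (1247.76 to 2058.31) of the probes well above background was taken. A probe was tested if all arrays of 1 or more groups had it well above background, which left 22821. One limma 3.58.1 model (R 4.3.3) held all 6 groups (10 residual degrees of freedom), with Benjamini-Hochberg adjustment over all probes. Dnaja2 in TBI rat 3, Hspa4 in Naive rat 1 and Hsph1 in PMI-006 rat 1 had no usable spot and were fitted without that array. No member was saturated, and replicates correlated at 0.9699 to 0.9925. The number of arrays limits precision. Where 12 members had several probes, the brightest was used, and in TBI against Sham 9 of 17 other probes had the opposite sign, none with both called. Other probes called in the injury comparisons are named in the text.

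The members, the gene lists and the rule for named genes were chosen with earlier results of these data known. Named were the listed chaperones and, per comparison, up to 5 called, non-overlapping members with the largest rise or fall. Promoters were matched by accession (50 genes) or symbol (4). Alternatives were quantile normalization, the percentile over all probes, normexp (offset 50), other filters, the authors' matrix, the mean of a gene's probes, the methods' t-test, fits on the compared groups, slide or replicate blocks, and leaving out each array. The fits were tested on simulated data. The result of 1 marker list is not reported here.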

Additional observations from a re-analysis of the deposited data

How the results depend on the processing

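The counts of called members in the injury comparisons (6 in TBI against Sham, 4 in TBI against Naive, 5 in Sham against Naive) rest on few arrays. Leaving out 1 array gave 2 to 7, 2 to 6 and 1 to 5, counted over the members only. They were 1, 1 and 0 under normexp and with slide as a fixed block, 0, 1 and 0 with limma on the compared groups alone, and 0, 0 and 0 under the methods' t-test after adjustment. Without adjustment, at the methods' fold limit, that test passed 8, 9 and 9 of 63 members, beside 13.5%, 13.9% and 16% of all probes. Without a filter on dim probes 2 were called in TBI against Naive. Under normexp 3, 35 and 13 of all probes were called higher and 1, 5 and 1 lower in these comparisons. Hspb1 was the member that held under normexp and the slide block.

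The drug counts against TBI (41 with JM6, 34 with PMI-006, 33 with E2) became 12, 9 and 9 after quantile normalization, the same counts in the authors' matrix (whose arrays share nearly 1 distribution), 22, 22 and 18 with the percentile over all probes, and 19, 4 and 10 under normexp. With the percentile over all probes, 6652 of all probes were called higher and 3334 lower with JM6. The numbers were 5426 and 2736 with PMI-006, and 6450 and 2768 with E2. Under normexp they were 4890 and 16 with JM6, 1441 and 0 with PMI-006, and 3199 and 6 with E2. Calls thus became fewer over the whole array as well as among the members. The adjusted t-test gave 27 with JM6 and 20 with PMI-006. Leaving out 1 array gave 31 to 41, 20 to 36 and 20 to 36, again counted over the members only. Between drugs no adjusted count rose above 0. The unadjusted t-test gave 3 for JM6 against PMI-006, 1 for JM6 against E2 and 4 for PMI-006 against E2, beside 6.81%, 2.71% and 14.9% of all probes. Leaving out 1 array kept the adjusted limma count at 0 in each pair.

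Of members called higher against TBI, 13 with JM6, 7 with PMI-006 and 10 with E2 turned below 0 after quantile normalization. The values of genes picked by rule that changed sign under any setting follow. Under normexp they were Dnajc16 in TBI against Sham (0.14) and Hspb7 with PMI-006 (-0.40). After quantile normalization the fold changes with JM6 were -0.16 for Bag2, -0.26 for Bag4, -0.067 for Dnajb9 and -0.15 for Dnajc6, with PMI-006 -0.17 for Bag4 and -0.035 for Dnajb9, and with E2 -0.51 for Bag4, -0.030 for Dnajc16, -0.21 for Dnajc18, -0.079 for Dnajc5 and -0.067 for Dnajc6. In the authors' matrix they were, with JM6, -0.15 for Bag2, -0.27 for Bag4, -0.057 for Dnajb9 and -0.14 for Dnajc6, with PMI-006 -0.15 for Bag4 and -0.010 for Dnajb9, and with E2 -0.50 for Bag4, -0.19 for Dnajc18, -0.057 for Dnajc5 and -0.052 for Dnajc6. With the percentile over all probes they were, with JM6, -0.18 for Bag1, -0.31 for Bag2, -0.065 for Dnajb9 and -0.34 for Dnajc6, with PMI-006 -0.040 for Dnajb9, and with E2 -0.18 for Bag1, -0.040 for Bag4, -0.097 for Dnajb1, -0.29 for Dnajc6, -0.041 for Hspa9 and -0.071 for Hspb2. The cause was not tested, except that these scalings set the all-probe level differently.

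With the replicate number as a block the counts were 5, 4 and 4 in the injury comparisons, 41, 33 and 32 for JM6, PMI-006 and E2 against TBI, and 0 between drugs. Replicate numbers did not pair the rats: 3 of 36 same-numbered pairs correlated above 0.1 (-0.185 to 0.183), and 8 of 16 arrays correlated best with their own number.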
